A study of Mus musculus with 9 samples.

Results

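The genes of the cyclin-dependent kinase (CDK) inhibitors were followed in regenerating mouse liver. They were the rows of the deposited table that carry the names *Cdkn1a*, *Cdkn1b*, *Cdkn1c*, *Cdkn2a*, *Cdkn2b*, *Cdkn2c*, *Cdkn2d* and *Cdkn3*, 8 of the 43346 genes listed. Whole livers of C57/BL6 mice aged 12 weeks were profiled by RNA-Seq in 3 groups of 3 libraries. The first group held resection specimens of vehicle-treated mice at 0 hours, that is, liver removed at hepatectomy. The other groups held liver remnants collected 40 hours after 70% partial hepatectomy from vehicle-treated mice and from mice given NSC-87877 (NSC). This compound is a small molecule inhibitor of the tyrosine phosphatase SHP2 that, by the paper, also inhibits SHP1. NSC was given at 7.5 mg/kg per dose and 15 mg/kg per day, from 12 hours before surgery to the end of the experiment. All mice underwent the same resection, no unoperated mice or NSC-treated resection specimens were analysed here, and both 40-hour groups were compared with the same 3 vehicle resection specimens.

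CDKs drive the cell cycle when bound to cyclins, and the adult liver holds most hepatocytes outside the cycle until tissue is lost. The Cip/Kip inhibitors, encoded by *Cdkn1a* (p21), *Cdkn1b* (p27) and *Cdkn1c* (p57), bind complexes of cyclins with several CDKs. The INK4 inhibitors, encoded by *Cdkn2a* (p16, which shares its gene with the p53 activator ARF), *Cdkn2b* (p15), *Cdkn2c* (p18) and *Cdkn2d* (p19), bind CDK4 and CDK6 and keep them from D-type cyclins. *Cdkn3* encodes no member of either family but a phosphatase that removes an activating phosphate from CDKs, and it is known as a gene of dividing cells. Much of the control of p21 and p27 acts on the proteins, which were not measured here.

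*Cdkn3*, *Cdkn2c* and *Cdkn2d* were all lower than in the vehicle remnants in 1 NSC liver and all higher in the other NSC livers, whereas *Cdkn1a* was nearly equal in the 3, so the promoter sequence of each is shown. Each is the 250 bases before the start of transcription from RefSeq (GRCm38.p6), printed 5′ to 3′ on the strand of the gene, and 7 of the 8 genes had an entry. Capitals mark matches on either strand to the motifs searched, which were chosen from general knowledge of cell cycle and core promoters. The cell cycle homology region (CHR) was spelled TTTGAA in its first form and TTTAAA in its second. The E2F motif had the forms TTTCCCGC and TTTGGCGC, with TTCCCGCC as the last. The GC box was GGGCGG and the CCAAT box was written as its name. The E box was searched as CACGTG, and the remaining motif was TATAAA, the letters of the TATA box. No match overlapped a match to another motif in these sequences.
*Cdkn3* (chr14:46760291-46760540, plus strand): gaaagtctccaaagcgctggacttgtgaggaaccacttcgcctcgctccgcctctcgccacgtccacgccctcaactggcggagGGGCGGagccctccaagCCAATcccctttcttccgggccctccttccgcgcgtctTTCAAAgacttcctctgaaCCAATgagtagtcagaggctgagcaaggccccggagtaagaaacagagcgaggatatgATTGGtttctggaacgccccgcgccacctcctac
*Cdkn2c* (chr4:109666757-109667006, minus strand): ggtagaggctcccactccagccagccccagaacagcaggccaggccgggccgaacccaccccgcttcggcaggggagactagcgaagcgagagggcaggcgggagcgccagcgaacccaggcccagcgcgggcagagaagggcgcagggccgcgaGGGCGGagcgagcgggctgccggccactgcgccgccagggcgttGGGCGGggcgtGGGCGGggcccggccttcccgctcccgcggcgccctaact
*Cdkn2d* (chr9:21291210-21291459, minus strand): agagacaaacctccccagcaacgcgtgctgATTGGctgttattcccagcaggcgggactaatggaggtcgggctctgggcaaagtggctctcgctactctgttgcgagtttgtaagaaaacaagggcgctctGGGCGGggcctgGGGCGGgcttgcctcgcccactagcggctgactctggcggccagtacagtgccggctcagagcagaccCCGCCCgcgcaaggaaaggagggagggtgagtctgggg
*Cdkn1a* (chr17:29093519-29093768, plus strand): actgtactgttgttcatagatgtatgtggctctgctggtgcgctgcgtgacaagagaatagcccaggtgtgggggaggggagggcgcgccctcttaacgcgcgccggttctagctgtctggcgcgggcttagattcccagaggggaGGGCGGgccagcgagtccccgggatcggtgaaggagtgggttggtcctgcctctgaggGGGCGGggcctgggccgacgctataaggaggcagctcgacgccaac

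The *Cdkn3* sequence held 3 CCAAT matches, which began 149, 92 and 34 bases before the start, 1 CHR match, which began 111 bases before it between the first and second CCAAT, and 1 GC box. *Cdkn2d* held 1 CCAAT match and 3 GC boxes, *Cdkn2c* held 3 GC boxes and *Cdkn1a* held 2 GC boxes. Both *Cdkn2c* and *Cdkn1a* have another RefSeq start, and no motif matched there. None of the 4 printed sequences held an E2F, E box or TATA box match. Among 32851 promoters of this length, 33.8% held a CCAAT match, 25.2% a CHR match, 32.7% a GC box and 2.69% an E2F match. A match is a run of letters and was not tested as a binding site.

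Library totals ran from 23997363 to 42887589 counted reads, and levels are given as CPM, counts relative to library size scaled by TMM factors. The markers of hepatocytes dominated every library, with a summed level of 90490 to 127800 CPM over 6 genes. NSC replicate 1 stood apart from the other livers at 40 hours. Its summed level of 10 mitotic genes was 165.5 CPM, against 979 and 737 CPM in NSC replicates 2 and 3 and between 301.5 and 409 CPM in the vehicle remnants. Its 6 macrophage markers summed to 306 CPM, against 175 and 183 CPM in NSC replicates 2 and 3, and all 6 were above 0 in all 9 libraries. In the vehicle remnants they summed to 90.1 to 172.8 CPM. The 6 stellate cell markers summed to 338 CPM in NSC replicate 1 and to 263 to 325 CPM in the vehicle remnants, above the 209 and 223 CPM of NSC replicates 2 and 3. The 6 endothelial markers summed to 241.7 CPM in NSC replicate 1, against 137.2 and 155.4 CPM in NSC replicates 2 and 3 and 144.0 to 211.4 CPM in the vehicle remnants. Of all genes tested, 12.7% rose and 11.0% fell with vehicle against resection specimens, and 18.2% and 16.5% with NSC. Against resection specimens, 4 of 5 cholangiocyte, 2 of 5 neutrophil, 2 of 6 macrophage and 3 of 6 stellate cell markers rose with vehicle, and 3, 4, 3 and 1 of them with NSC. Of 6 hepatocyte markers, 1 fell with vehicle and 2 with NSC. Of the tested markers, 1 of 6 endothelial, 1 of 4 lymphocyte and 1 of 4 erythroid markers fell with vehicle, and 0, 1 and 1 of them with NSC. Their part in the results was not tested, and each comparison that rests on NSC replicate 1 is given with and without it. In whole liver, fewer cells of a type and less RNA per cell cannot be told apart.

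**Figure D1:**
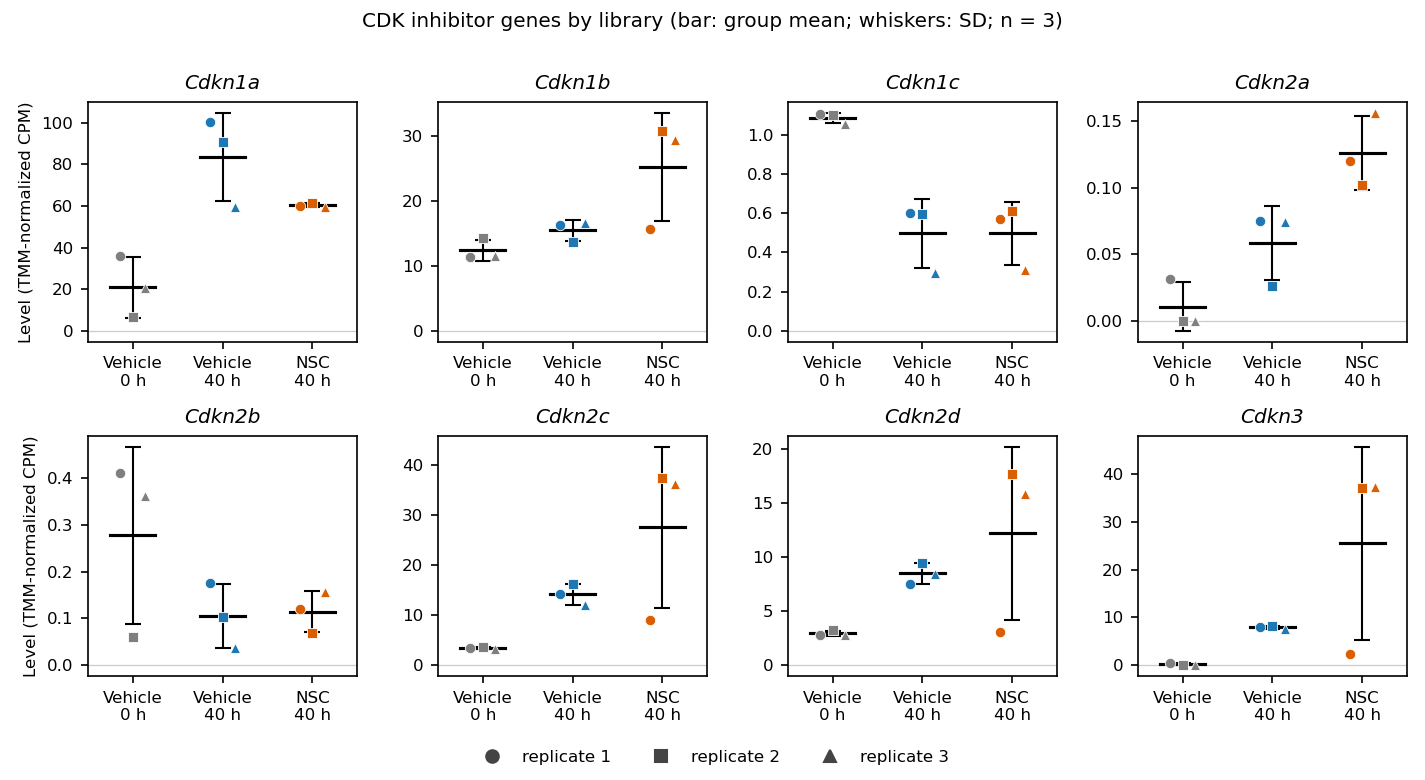
Level of each CDK inhibitor gene (vertical axes, TMM-normalized CPM, a separate scale for each panel) in the 3 libraries of each group (horizontal axes), with the group mean and SD. NSC replicate 1 (circle) lies far below NSC replicates 2 and 3 for *Cdkn2c*, *Cdkn2d* and *Cdkn3*, while the 3 NSC libraries lie between 59.6 and 61.5 CPM for *Cdkn1a*.

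Levels were compared between genes per gene length, by the deposited FPKM. In the resection specimens *Cdkn1a* had the highest mean, at 9.06 ± 6.30 FPKM (SD, n = 3), ahead of *Cdkn1b* at 2.63 ± 0.344, *Cdkn2d* at 2.22 ± 0.201 and *Cdkn2c* at 1.23 ± 0.0886 FPKM. *Cdkn1a* ranged there from 2.83 to 15.4 FPKM, which overlapped *Cdkn1b*, and *Cdkn1b* overlapped *Cdkn2d*, so the order of those neighbours was not beyond their spread. *Cdkn1c* (0.543 FPKM), *Cdkn3* (0.235 FPKM), *Cdkn2b* (0.193 FPKM) and *Cdkn2a* (0.00862 FPKM) had the lowest means.

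In the vehicle remnants *Cdkn1a* was still highest, at 36.8 ± 10.8 FPKM (SD, n = 3), and *Cdkn3* had moved from sixth place to second, at 9.97 ± 0.734 FPKM. *Cdkn2d* (6.47 FPKM), *Cdkn2c* (5.11 FPKM), *Cdkn1b* (3.33 FPKM) and *Cdkn1c* (0.251 FPKM) followed, and none of these neighbours overlapped. With NSC the mean of *Cdkn3* was highest, at 34.5 ± 27.2 FPKM, but its 3 libraries ran from 3.17 to 51.4 FPKM and overlapped *Cdkn1a* at 28.9 ± 0.849 FPKM. *Cdkn2c*, *Cdkn2d* and *Cdkn1b* overlapped each other with NSC.

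The FPKM of the 8 genes summed to 22.5, 10.3 and 15.5 in the resection specimens and to 74.5, 61.5 and 50.1 in the vehicle remnants. With NSC the sums were 43.7, 113.3 and 114.8, so NSC replicate 1 lay below every vehicle remnant and the other NSC livers above every one. The Cip/Kip genes held 69.4, 64.6 and 59.2% of the sum in the vehicle remnants, and 77.8, 31.4 and 30.98% with NSC. The share of *Cdkn3* was 14.5, 15.5 and 19.1% in the vehicle remnants and 7.25, 43.3 and 44.7% with NSC.

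**Figure D2:**
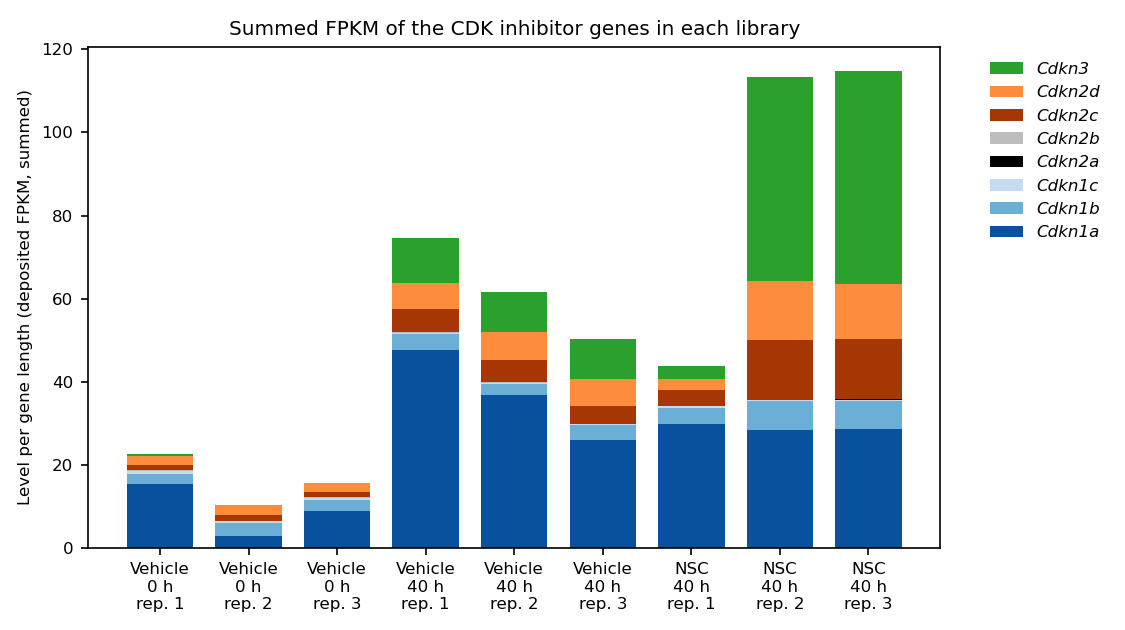
Deposited FPKM of the 8 CDK inhibitor genes (vertical axis, stacked) in each of the 9 libraries (horizontal axis). *Cdkn1a* makes up most of each vehicle remnant and of NSC replicate 1, and *Cdkn3* is the widest segment in NSC replicates 2 and 3.

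The first question was which CDK inhibitor genes differed 40 hours after hepatectomy in vehicle-treated mice. Of the 8 genes, 6 had enough counts to be tested, and *Cdkn2a* and *Cdkn2b* did not. *Cdkn1a*, *Cdkn2c* and *Cdkn3* rose at an adjusted p under 0.05, and none was called lower, with *Cdkn1c* just above the threshold. Thus 3 of 6 were called higher, where 12.7% of the 15024 genes tested were called higher and 11.0% lower (edgeR quasi-likelihood test, Benjamini-Hochberg adjustment over all genes tested). *Cdkn3* passed the filter on low counts through the remnants, and with at least 10 counts required in every library it was not tested and 2 of 4 members were called. The share of all genes called under that filter is not given here. The libraries of the groups did not overlap for 5 of the 6 genes, and for 46.3% of all genes tested. With an added threshold of 1.5 on the absolute log2 fold change, 3 of 6 were still higher, beside 5.03% of all genes tested. The median log2 fold change was 1.77 over the 6 genes and 0.01 over all genes tested.

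The second question was which of them differed in the remnants of NSC-treated mice, and here *Cdkn1b*, *Cdkn2c*, *Cdkn2d* and *Cdkn3* rose and *Cdkn1c* fell. These 4 of 6 called higher and 1 of 6 called lower stand beside 18.2% of all genes tested called higher and 16.5% called lower. Groups did not overlap for 5 of the 6 genes, and for 47.1% of all genes tested. Above the same fold change threshold 3 of 6 were higher, beside 5.38% of all genes tested. These counts include *Cdkn3*, which passed the filter on low counts through the remnants and was not tested with at least 10 counts required in every library. Without NSC replicate 1 the same 4 genes were called higher, beside 17.8% of the 15390 genes then tested, and *Cdkn1c* was not called (adjusted p = 0.0612, 0.0404 to 0.127 over the alternatives). Both comparisons share the 3 resection specimens, so they are given side by side below.

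**Figure D3:**
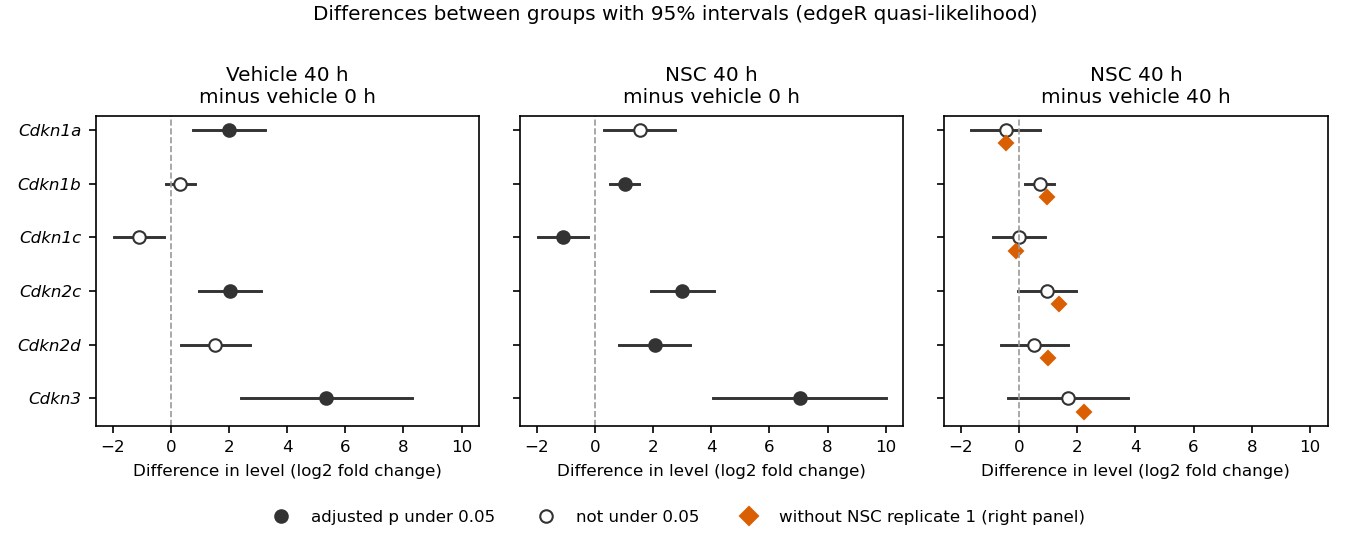
Log2 fold change of each tested CDK inhibitor gene (horizontal axes) with its 95% interval in the 3 comparisons, where filled points have an adjusted p under 0.05 and diamonds leave out NSC replicate 1. In the right panel all 6 points are open, and the interval of *Cdkn1b* is the only one of the 6 that lies wholly above 0.

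Among the Cip/Kip genes, *Cdkn1a* (ENSMUSG00000023067, chromosome 17, 29090979 to 29100722) encodes p21, an effector of p53. It was at 35.7, 6.54 and 20.4 CPM in the resection specimens and at 100.3, 90.9 and 59.7 CPM in the vehicle remnants. The NSC remnants had 60.2, 61.5 and 59.6 CPM. Every remnant was above every resection specimen, the resection specimens differed among themselves more than 5-fold, and the NSC libraries were nearly equal. The rise with vehicle was 2.00 on the log2 scale (standard error 0.53, 95% interval 0.78 to 3.22, adjusted p = 0.0295). It lost the call without resection replicate 3 (adjusted p = 0.0942), vehicle replicate 1 (0.087), vehicle replicate 2 (0.0652) or NSC replicate 1 (0.0556), with a log2 fold change between 1.58 and 2.63 over all fits without 1 library, and also with all genes with at least 1 count (0.0746) or only these 6 libraries in the fit (0.078). With NSC the log2 fold change was 1.53 (standard error 0.52, interval 0.32 to 2.74, adjusted p = 0.054), and it passed the threshold without resection replicate 1 (2.16, adjusted p = 0.0105) or 2 (1.11, adjusted p = 0.00999). It also passed with DESeq2 (0.0013), library size only (0.0468) and at least 10 counts in every library (0.0472).

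*Cdkn1b* (ENSMUSG00000003031, chromosome 6, 134920401 to 134925513) encodes p27, a brake on the entry into S phase. It was at 11.4, 14.3 and 11.6 CPM in the resection specimens and at 16.3, 13.6 and 16.5 CPM in the vehicle remnants, which overlapped. The log2 fold change with vehicle was 0.32 (standard error 0.23, interval -0.18 to 0.82, adjusted p = 0.339). With NSC the libraries had 15.7, 30.8 and 29.4 CPM, all above the resection specimens. The rise was 1.02 on the log2 scale (standard error 0.23, adjusted p = 0.00511), and it kept the call in all 9 fits that left out 1 library.

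*Cdkn1c* (ENSMUSG00000037664, chromosome 7, 143458350 to 143461050) encodes p57 and is imprinted. It had 35, 36 and 32 counts in the resection specimens, or 1.11, 1.10 and 1.06 CPM. The vehicle remnants had 24, 23 and 8 counts (0.601, 0.596 and 0.295 CPM), and the NSC remnants 19, 18 and 8 counts (0.570, 0.611 and 0.313 CPM). All 6 remnants were below all resection specimens. With vehicle the log2 fold change was -1.10 (standard error 0.39, adjusted p = 0.0613), and the adjusted p was under the threshold with DESeq2 (0.0493), with only these 6 libraries (0.0395) or without NSC replicate 3 (0.0497). With NSC it was -1.11 (standard error 0.40, adjusted p = 0.0486), a call that was lost in 8 of the 9 fits without 1 library, where the adjusted p reached 0.127, and kept only without vehicle replicate 3. It was also lost with library size only (0.0872), with all genes with at least 1 count (0.0859) and with only these 6 libraries (0.0524).

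Of the INK4 genes, *Cdkn2c* (ENSMUSG00000028551, chromosome 4, 109660876 to 109667189) encodes p18. It was at 3.35, 3.69 and 3.20 CPM in the resection specimens, at 14.2, 16.1 and 12.0 CPM in the vehicle remnants and at 8.97, 37.5 and 36.2 CPM with NSC. All 6 remnants exceeded the resection specimens, while NSC replicate 1 was below and the other NSC livers above all vehicle remnants. The rise with vehicle was 2.05 on the log2 scale (standard error 0.47, interval 0.98 to 3.12, adjusted p = 0.0147). Without resection replicate 1, 2 or 3 the adjusted p was 0.0575, 0.0513 and 0.0598. The rise with NSC was 3.01 (standard error 0.48, interval 1.91 to 4.11, adjusted p = 0.00205), called in all 9 fits without 1 library.

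*Cdkn2d* (ENSMUSG00000096472, chromosome 9, 21288463 to 21291209) encodes p19. It was at 2.78, 3.24 and 2.77 CPM in the resection specimens, at 7.51, 9.51 and 8.49 CPM in the vehicle remnants and at 3.03, 17.8 and 15.9 CPM with NSC. The vehicle remnants lay wholly above the resection specimens, whereas NSC replicate 1 lay among the latter. The log2 fold change with vehicle was 1.54 (standard error 0.53, interval 0.33 to 2.74, adjusted p = 0.0664). When NSC replicate 1 was left out of the fit, which shares its estimate of spread over the 3 groups, it was again 1.54, with a standard error of 0.17 and an adjusted p of 3.24e-05 (0.172 at most over the alternatives). The rise with NSC was 2.06 (standard error 0.54, adjusted p = 0.017) and lost the call without any 1 of the resection replicates (adjusted p = 0.0539 to 0.0658), or with all genes with at least 1 count (0.0575).

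*Cdkn2a* (ENSMUSG00000044303, chromosome 4, 89274471 to 89294653) and *Cdkn2b* (ENSMUSG00000073802, chromosome 4, 89306289 to 89311032) lie side by side and did not pass the filter on low counts. *Cdkn2a* had 1, 0 and 0 counts in the resection specimens, 3, 1 and 2 in the vehicle remnants and 4, 3 and 4 with NSC. *Cdkn2b* had 13, 2 and 11 counts in the resection specimens, 7, 4 and 1 in the vehicle remnants and 4, 2 and 4 with NSC. *Cdkn2a* was near the floor of 3 counts, which corresponded to 0.0700 to 0.125 CPM per library by library totals without TMM factors. *Cdkn2b* exceeded 3 counts in resection replicates 1 and 3 (0.411 and 0.363 CPM), in vehicle replicates 1 and 2 and in NSC replicates 1 and 3. A difference in either was not detectable at this depth by an adjusted p over all genes with at least 1 count (0.106 to 0.7 for *Cdkn2a* and 0.332 to 1 for *Cdkn2b*). The counts do not tell the transcripts of p16 and ARF apart.

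*Cdkn3* (ENSMUSG00000037628, chromosome 14, 46760541 to 46771525) was the member with the largest differences in both comparisons with resection specimens. It had 13, 3 and 2 counts in the resection specimens, or 0.411, 0.0916 and 0.0660 CPM, so the baseline of its fold changes rests on 18 counts. The vehicle remnants had 7.93, 8.19 and 7.64 CPM, and the NSC remnants had 2.22, 37.1 and 37.3 CPM. The vehicle remnants were close to each other, and NSC replicate 1 was below all of them while NSC replicates 2 and 3 were more than 4-fold above. The rise with vehicle was 5.35 on the log2 scale (standard error 1.24, interval 2.43 to 8.28, adjusted p = 0.0208). It lost the call without resection replicate 2 (adjusted p = 0.0809), resection replicate 3 (0.078) or vehicle replicate 1 (0.0553), with a log2 fold change between 4.97 and 6.57 over the fits without 1 library. The rise with NSC was 7.04 (standard error 1.26, interval 4.07 to 10.01, adjusted p = 0.00524), called in all 9 such fits.

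The third question was whether NSC changed these genes relative to vehicle at the same time. None of the 6 genes was called, where 0.0399% of all genes tested were called, and the groups overlapped for all 6 (for 22.5% of all genes tested they did not). At an unadjusted p under 0.05 there were 2929 genes, 1 of them a CDK inhibitor gene (*Cdkn1b*), and DESeq2 called none of the 6. The largest difference was that of *Cdkn3*, at 1.69 on the log2 scale with an interval of -0.38 to 3.76 (adjusted p = 0.334). *Cdkn2c* differed by 0.96 (interval -0.05 to 1.97, adjusted p = 0.274), *Cdkn1b* by 0.71 (interval 0.21 to 1.20, adjusted p = 0.141) and *Cdkn2d* by 0.52 (interval -0.63 to 1.67, adjusted p = 0.597). *Cdkn1a* was lower with NSC by -0.47 (interval -1.64 to 0.71, adjusted p = 0.639) and *Cdkn1c* by -0.01 (interval -0.90 to 0.88, adjusted p = 0.993). These intervals are wide, and the p-values do not show that vehicle and NSC act alike on these genes.

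Without NSC replicate 1, 4 of the 6 genes were called higher with NSC than with vehicle, where 3.73% of the 15390 genes then tested were called higher. *Cdkn3* was then higher by 2.23 on the log2 scale (standard error 0.26, adjusted p = 0.000772, 0.000772 to 0.585 over the alternatives). *Cdkn2c* was higher by 1.38 (standard error 0.16, adjusted p = 0.000556, 0.000556 to 0.527 over the alternatives). *Cdkn2d* was higher by 0.98 (adjusted p = 0.00858, up to 0.92) and *Cdkn1b* by 0.95 (adjusted p = 0.00519, up to 0.443). *Cdkn1a* (-0.47, adjusted p = 0.703) and *Cdkn1c* (-0.12, adjusted p = 0.9) were not called. No other library left out gave a call among the 6 genes in this comparison, and the labels give no reason to set NSC replicate 1 aside. That library was singled out by its low levels of several of these genes and of the mitotic genes. The calls without it are therefore not an independent test of NSC against vehicle, and they rest on NSC replicates 2 and 3 only.

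The 40-hour livers were therefore set beside 10 mitotic genes, with each gene's log2 CPM taken relative to its mean in the vehicle remnants. In NSC replicate 1 all 10 mitotic genes were below that mean, from -2.50 (*Cdc20*, an activator of the anaphase-promoting complex) to -0.67 (*Kif11*, a spindle motor), and *Cdkn3* (-1.81), *Cdkn2d* (-1.46) and *Cdkn2c* (-0.64) were below it too. In NSC replicate 2 the mitotic genes ran from 1.06 to 1.88 and *Cdkn3* stood at 2.22. In NSC replicate 3 they ran from 0.53 to 1.68 and *Cdkn3* stood at 2.23. *Cdkn3* was thus above each of the 10 mitotic genes in NSC replicates 2 and 3, and within their range in NSC replicate 1.

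*Cdkn2c* stood at 1.42 and 1.36 in NSC replicates 2 and 3, and *Cdkn2d* at 1.06 and 0.90. *Cdkn1b* had 0.03 in NSC replicate 1 and 0.99 and 0.92 in the other NSC livers. *Cdkn1a* had -0.44, -0.41 and -0.45 in the 3 NSC livers and did not follow the mitotic genes among them. *Cdkn1c* had 0.23, 0.32 and -0.52.

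**Figure D4:**
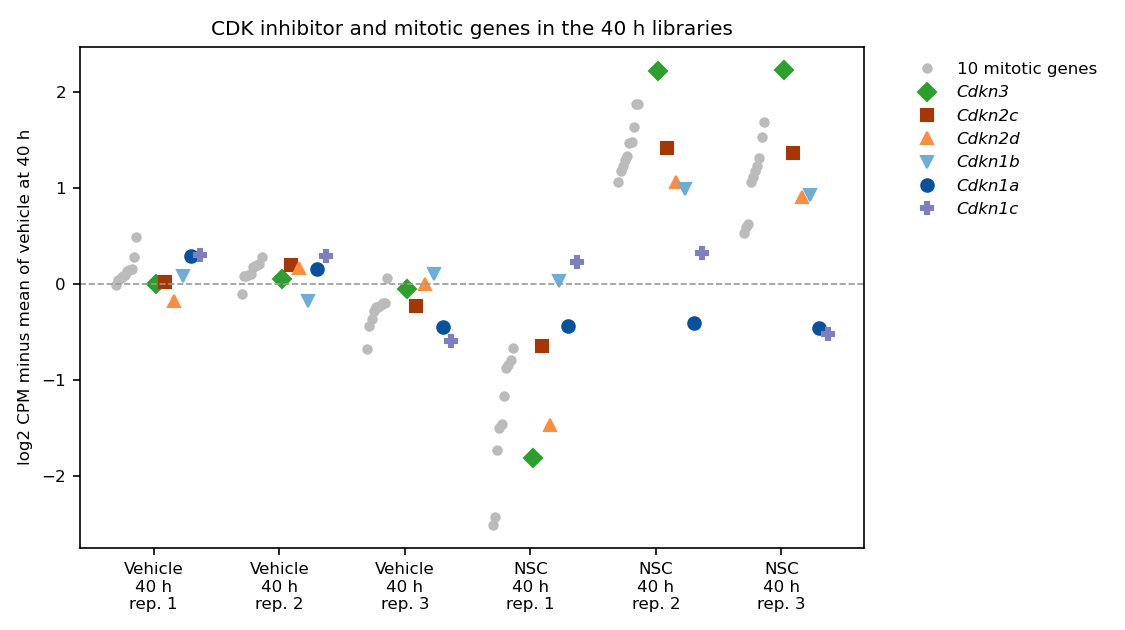
Log2 CPM minus the mean of the vehicle remnants (vertical axis) for the 6 tested CDK inhibitor genes and 10 mitotic genes in the 6 libraries at 40 hours (horizontal axis). *Cdkn3*, *Cdkn2c* and *Cdkn2d* lie below 0 with the mitotic genes in NSC replicate 1 and above 0 with them in NSC replicates 2 and 3, and *Cdkn1a* lies between -0.45 and -0.41 in all 3 NSC libraries.

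All 10 mitotic genes rose in both comparisons with resection specimens, with medians of 6.53 and 7.05 on the log2 scale. *Mki67*, a marker of cycling cells, rose by 6.55 and 7.07, *Top2a*, which untangles DNA, by 6.51 and 7.03, and *Bub1*, a spindle checkpoint kinase, by 6.83 and 7.66. None was called between NSC and vehicle. Without NSC replicate 1, 9 of 10 were called higher with NSC, beside 3.73% of all genes then tested. That library was singled out by its low levels of these same genes, so those calls are not separate support.

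Of the kinases and cyclins that the inhibitors act on, 8 of 12 rose and none fell in each comparison with resection specimens. Of all genes tested, 12.7% were called higher with vehicle and 18.2% with NSC. The call of *Cdk4*, made with vehicle only (edgeR adjusted p = 0.0496), held in 2 of 9 fits without 1 library. That of *Cdk2*, made with NSC only (edgeR adjusted p = 0.0371), held in 4 of 9. *Ccne2* and *Ccne1*, the E-type cyclins of the G1/S transition, rose by 2.92 and 3.22 with vehicle and by 3.99 and 3.22 with NSC. *Ccnd1*, the cyclin partner of CDK4 and CDK6, rose by 3.29 with vehicle, from 10.7 to 104.7 CPM, and by 2.91 with NSC. *Ccna2*, the cyclin of S and G2 phase, rose by 5.13 and 6.21. *Cdk6*, *Ccnd2* and *Ccnd3* were called in neither comparison, at log2 fold changes between -0.14 and 0.67. Between NSC and vehicle none of the 12 was called, and 4 were called higher without NSC replicate 1, beside 3.73% of all genes then tested.

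Among 10 genes of the ubiquitin ligases that turn over p21, p27 and p57, 3 rose and 2 fell with vehicle, and 4 rose and 2 fell with NSC. Of all genes tested, 12.7% rose and 11.0% fell with vehicle, and 18.2% rose and 16.5% fell with NSC. *Dtl*, the CRL4 substrate receptor that targets p21, rose by 3.57 with vehicle and 4.69 with NSC. *Skp2*, the receptor for p27, rose by 1.85 and 2.42, and its cofactor *Cks1b* by 2.07 and 2.52. *Rnf123*, a ligase of p27 in G1, fell with vehicle (-0.82) and with NSC (-1.28), as did the scaffold *Cul4a* (-0.50 and -0.52). The call of *Cul4a* held in only 2 of 9 fits without 1 library with vehicle (adjusted p up to 0.142) and in 4 of 9 with NSC (up to 0.104). *Cul1* was called with NSC only (0.44, edgeR adjusted p = 0.0494), and that call held in 3 of 9 such fits. None of the 10 was called between NSC and vehicle, and 2 were called higher without NSC replicate 1, beside 3.73% of all genes then tested.

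Of 18 transcription and chromatin regulators of CDK inhibitor genes, 4 rose and 6 fell with vehicle, and 5 rose and 6 fell with NSC. Among all genes tested, 12.7% rose and 11.0% fell with vehicle, and 18.2% rose and 16.5% fell with NSC. *Foxo3*, an activator of *Cdkn1b*, fell with vehicle (-1.33) and with NSC (-1.46), as did *Cebpa* (-1.55 and -1.32), a hepatocyte factor that stabilizes p21. *Cbx7*, a Polycomb reader at the *Cdkn2a* locus, fell too (-1.65 and -1.76). *Ezh2*, the Polycomb methyltransferase, rose by 1.60 and 2.17, and *Bmi1*, a Polycomb ubiquitin ligase subunit, rose by 0.52 and 1.06. *Rnf2*, its catalytic partner, rose by 1.11 with NSC and had 0.46 with vehicle (adjusted p = 0.0525). *Klf6* rose by 1.76 and 1.4, and *Trp53*, which encodes p53, rose by 0.61 with vehicle and had 0.18 with NSC (adjusted p = 0.435). With vehicle the calls of *Bmi1* and *Trp53* each held in 4 of 9 fits without 1 library and that of *Klf6* in 6 of 9, and with NSC that of *Klf6* held in 4 of 9. Between NSC and vehicle none of the 18 was called, and 2 were called higher without NSC replicate 1, beside 3.73% of all genes then tested.

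Of 16 other p53 target genes, 8 rose and 2 fell with vehicle, and 7 rose and 2 fell with NSC, with medians of 0.52 and 0.59. *Eda2r*, a member of the TNF receptor family, rose by 3.35 and 4.29, and *Aen*, an apoptosis nuclease, by 1.35 and 1.05. *Zmat3*, an RNA-binding protein, rose by 1.26 and 1.12, and *Ccng1*, an atypical cyclin, by 0.99 and 1.33. *Sesn2* fell (-1.03 and -1.25), and so did *Bbc3* (-1.01 and -1.24), which encodes the apoptosis inducer PUMA. With vehicle the calls of *Sesn2* and *Bbc3* held in 8 and 5 of 9 fits without 1 library. Among all genes tested, 12.7% rose and 11.0% fell with vehicle, and 18.2% rose and 16.5% fell with NSC. None of the 16 was called between NSC and vehicle (2 were called higher without NSC replicate 1, beside 3.73% of all genes then tested).

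The genes of the imprinted Kcnq1 domain around *Cdkn1c* were set beside it. Of 9 listed, 7 were tested, and 1 of them, *Tssc4*, was called, with a rise of 0.60 with vehicle (adjusted p = 0.0232), beside 12.7% of all genes tested called higher. That call held in 5 of 9 fits without 1 library. *Kcnq1* and *Slc22a18*, the nearest tested genes on either side of *Cdkn1c*, had log2 fold changes of -0.74 and -0.34 with vehicle and -0.19 and -0.51 with NSC, and neither was called.

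The genes whose log2 CPM followed each member most closely over the 9 libraries were read off as a description, since the groups set most of this likeness. *Cdkn2c* was nearest to *Hmgb2* (Pearson r = 0.996), *Cenpa* and *2010110K18Rik*, and *Cdkn2d* to *Bub3* (r = 0.993), *Cntd1* and *Gm5585*. *Cdkn3* was nearest to *Mdm1* (r = 0.994), *4933413G19Rik* and *Pif1*, and *Cdkn1b* to *Asf1a* (r = 0.978) and *Hnrnpa0*. *Cdkn1a* was nearest to *Avpr1a* (r = 0.980), *Gm8258* and *Tnfaip6*, and *Cdkn1c* to *Pik3c3* (r = 0.982), *Pcnx* and *Sash1*. No gene stood on the lists of more than 1 member. Within groups, as deviations from the group means, *Cdkn2c* had r = 0.984 with *Cdkn2d* and 0.898 with *Cdkn3* over the 9 libraries. Over the 8 libraries without NSC replicate 1 these were 0.538 and 0.00762, so the likeness within groups rests on that library.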

How the data were processed

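RNA of whole liver was sequenced from 9 libraries in 3 groups of 3 (TruSeq Stranded mRNA). The authors aligned reads with STAR 2.6.1 and counted them on genes with featureCounts of Subread 1.5.1, per the submitters' processing notes. The deposited values are raw counts without normalization, and FPKM, which the authors computed from the same counts, gene length and library total. For the 8 members, the length implied by FPKM and counts differed from the deposited length by at most 0.129%. The notes name a human build (hg38), whereas all 8 identifiers are mouse genes present in GENCODE M21. Only 3 of the 8 had the same start and end there as in the deposited values. No member overlapped another listed gene. All 37 mitochondrial genes are listed at 0. The sources do not say if equal replicate numbers mark 1 mouse, so p-values measure the spread between these libraries.

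Tests of counts ran in edgeR 4.0.16 (R 4.3.3). Low genes were dropped by filterByExpr, TMM factors scaled the libraries, and all 9 entered 1 robust quasi-likelihood fit with group as the only term. P-values were adjusted over 15024 genes (Benjamini-Hochberg) and called at 0.05. The script was tested on simulated counts. Log2 CPM used a prior count of 2. Alternatives were DESeq2 1.42.0, RLE factors, library size only, 2 other filters (at least 1 count in any library, at least 10 in every library), a fit of just the groups compared, a replicate block, an added threshold of 1.5 on the absolute log2 fold change, an adjusted p of 0.1, and each library left out in turn. The genes named were all members, up to 3 called genes per list, direction and comparison with the smallest adjusted p, the 3 genes most like each tested member (1 of them is not reported here), and the nearest tested neighbours. Other list genes named (*Cdc20*, *Kif11*, *Cdk2*, *Cdk4*, *Cdk6*, *Ccnd2*, *Ccnd3*, *Cul1*) were chosen after their values were seen. The members and lists were chosen with earlier results of these data known. Python 3.11.15 (pandas 2.3.3, scipy 1.17.1, matplotlib 3.10.9) was used for tables and figures. Floors of 3 counts cover counting error only. Protein sequences were not used here.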

Additional observations from a re-analysis of the deposited data

Results flagged for a closer look

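*Cdkn2a*, which lay below the filter on low counts and entered no test across genes, had more counts with NSC than in the resection specimens. It had 11 counts over the 3 NSC libraries (4, 3 and 4), 6 over the vehicle remnants (3, 1 and 2) and 1 over the resection specimens (1, 0 and 0), and was pointed out because each NSC library exceeded each resection specimen in a gene that the comparisons did not use. In the resection libraries without a count, 0 counts allow up to 0.0884 and 0.0962 CPM by library totals without TMM factors. This is close to the 0.102 to 0.157 CPM of the NSC libraries, which include those factors. A 2-sided exact permutation test of CPM gave p = 0.1, the smallest that 3 libraries against 3 allow. The gene was pointed out for this full separation, which fixes that p-value, so the test adds no support. When all genes with at least 1 count were tested, edgeR gave an adjusted p of 0.106. In CPM the NSC libraries were also wholly above the vehicle remnants, where edgeR gave an adjusted p of 0.7 over the same genes. The unequal depths and the low counts were not tested as a source of the difference.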

How the results depend on the processing

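Of 317 values of the members' log2 fold changes under alternatives, 263 kept their direction and their side of the threshold, 30 lost the call, 18 gained one and 6 changed sign. All 6 were *Cdkn1c* between NSC and vehicle, near 0 throughout: 0.0034 with RLE factors, 0.12 with library size only, 0.0005 with the replicate block, and -0.25 to 0.22 without 1 library. The number of members called with vehicle against resection specimens was 3, 5 with DESeq2 or an adjusted p of 0.1, and 0 (without resection replicate 3) to 4 without 1 library. With NSC it was 5, 3 with all genes with at least 1 count or the fold change threshold, and 3 to 5 without 1 library, and library size only gave 5 higher and 0 lower in place of 4 and 1. Between NSC and vehicle it was 0, and 0 to 4 without 1 library. Shares of all genes called are given above only for the main fit, the fold change threshold and fits without NSC replicate 1. The other counts therefore do not show whether the members stood out from all genes. Replicate numbers were not taken as pairs in the main fit. Deviations from group means correlated at -0.0479 to 0.134 between libraries of equal number. Libraries of unequal number were not set beside them, so this cannot show whether equal numbers mark 1 mouse. With the replicate block 2 members were called with vehicle (*Cdkn3* had an adjusted p of 0.0615), 5 with NSC and 0 between them.

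Counts of list genes kept within 1.5 times of the main count in 292 of 324 values. Under the fold change threshold, ligase genes called numbered 3 in both comparisons with resection specimens, regulators 4 and 3, p53 targets 3 and 2, and imprinted domain genes 0 with vehicle. With at least 10 counts in every library 5 mitotic genes were tested and called in both. Imprinted domain genes called with NSC numbered 1 with all genes with at least 1 count or an adjusted p of 0.1. Between NSC and vehicle, DESeq2 called 1 kinase or cyclin gene, 1 ligase gene, 2 regulators and 3 p53 targets, an adjusted p of 0.1 gave 1 ligase gene, 1 regulator and 2 p53 targets, and all genes with at least 1 count gave 1 ligase gene. Without 1 library, regulators called with vehicle ranged from 6 to 11 and imprinted domain genes from 0 to 1 with either treatment. Between NSC and vehicle the ranges were 0 to 4 for kinases and cyclins, 0 to 9 for mitotic genes and 0 to 2 for ligase genes, regulators and p53 targets, the upper ends without NSC replicate 1. The causes were not tested.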

Other observations

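Neighbouring genes were called beside some members and not beside others. Here "before" and "past" follow the chromosome coordinates and not the strand of the member, and *Cdkn2c* and *Cdkn2d* lie on the minus strand. *Kri1*, a ribosome assembly factor gene that ends 494 bp before *Cdkn2d*, had log2 fold changes of 0.12 with vehicle and -0.11 with NSC against resection specimens. *Faf1*, 9.40 kb past *Cdkn2c*, had -0.17 and -0.04, and *9630013D21Rik*, 3.02 kb before it, had -0.35 and 0.91 (neither called). *Cnih1*, 4.06 kb past *Cdkn3*, had 0.20 with vehicle and rose by 0.72 with NSC (edgeR adjusted p = 0.00626). The nearest tested gene past *Cdkn1b*, *1190002F15Rik* at 3.58 kb, rose by 6.38 with vehicle (adjusted p = 0.00747) and by 7.30 with NSC (adjusted p = 0.00292), and *Gpr19* on the other side had -0.01 and 0.17.

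*Srsf3*, a splicing factor gene 47.6 kb before *Cdkn1a*, rose by 0.69 with vehicle (adjusted p = 0.0222) and by 1.30 with NSC (adjusted p = 0.00054). *Rab44*, 34.3 kb past *Cdkn1a*, rose by 2.57 with vehicle (adjusted p = 0.0346) and had 0.92 with NSC (adjusted p = 0.438). *Mtap*, the methionine salvage enzyme gene next to *Cdkn2a*, had 0.33 with vehicle and rose by 0.77 with NSC (adjusted p = 0.00149). None of the tested neighbours was called between NSC and vehicle.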
